A study of Homo sapiens with 16 samples.

Results

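ISG15 is a small ubiquitin-like protein that is coupled to other proteins, and the 6 genes described here code for ISG15 itself, for enzymes of its coupling and for the protease that removes it. They were taken by symbol from a table of 59428 genes: ISG15, UBA7, UBE2L6, HERC5, HERC6 and USP18. RNA was measured in 16 libraries from OVCAR3 and UWB1.289, a pair of serous ovarian carcinoma cell lines, after 96 h with olaparib, an inhibitor of PARP enzymes that act in the repair of DNA strand breaks, or with its solvent DMSO. OVCAR3, in which BRCA1 is intact, was grown in RPMI1640 with serum and bovine insulin and received 7.5 µM olaparib, and UWB1.289, which carries a deleterious BRCA1 mutation, was grown in a mixture of MEGM and RPMI1640 with less serum and received 3.5 µM. Line, BRCA1 status, dose and medium therefore cannot be told apart, and each line stands for itself as a model. The 4 groups of line and treatment had 4 libraries each, and nothing in the labels says whether replicates were separate cultures, so p-values measure the spread between these libraries, which may be technical.

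Coupling of ISG15 (ISGylation) runs through a short chain of enzymes, as ubiquitination does. UBA7 is the activating enzyme (E1) that charges ISG15, UBE2L6 is the conjugating enzyme (E2) that takes it over, and HERC5 is the main human ligase (E3) that passes it to target proteins. HERC6 is the closest relative of HERC5 and its neighbour in the genome, and in mouse, which has no HERC5, it is the main ISG15 ligase. USP18 cuts ISG15 off its targets and, apart from that activity, binds the type I interferon receptor chain IFNAR2 and damps its signal. All these genes are known as interferon-stimulated genes, whose promoters often hold an interferon-stimulated response element (ISRE), the binding site of the factor ISGF3 (which holds STAT2 and IRF9) and of interferon regulatory factors (IRFs).

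The members lie on 5 chromosomes (GRCh38, GENCODE release 44). ISG15 (ENSG00000187608) is on chromosome 1 (forward strand, 1001138 to 1014540), a span that takes in transcripts starting far upstream of the usual start. UBA7 (ENSG00000182179) is on chromosome 3 (reverse strand, 49805209 to 49813953), UBE2L6 (ENSG00000156587) on chromosome 11 (reverse strand, 57551656 to 57568284), and USP18 (ENSG00000184979) on chromosome 22 (forward strand, 18150118 to 18177397). HERC6 (ENSG00000138642; 88378739 to 88443097) and HERC5 (ENSG00000138646; 88457119 to 88506163) follow each other on the forward strand of chromosome 4 with 14022 bases between them.

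RefSeq promoters (GRCh38.p14, 250 bases before to 50 after the start) were at hand for 4 of the 6 members. Shown are the 150 bases before the start of these members, ISG15 (chr1:1013347-1013496, forward strand), HERC5 (chr4:88456969-88457118, forward strand), HERC6 (chr4:88378702-88378851, forward strand) and UBE2L6 (chr11:57567936-57568085, reverse strand). All 4 rose in UWB1.289, as UBA7 and USP18 did, and they differ in these letters. Capitals mark matches to the ISRE core GAAANNGAAA on either strand (read as TTTCNNTTTC on the other strand).
ISG15: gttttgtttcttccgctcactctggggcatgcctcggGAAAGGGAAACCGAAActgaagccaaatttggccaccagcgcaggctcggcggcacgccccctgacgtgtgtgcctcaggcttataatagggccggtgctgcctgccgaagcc
HERC5: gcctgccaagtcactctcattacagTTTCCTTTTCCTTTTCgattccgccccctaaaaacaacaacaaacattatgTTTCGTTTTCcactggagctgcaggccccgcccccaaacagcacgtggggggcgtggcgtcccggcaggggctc
HERC6: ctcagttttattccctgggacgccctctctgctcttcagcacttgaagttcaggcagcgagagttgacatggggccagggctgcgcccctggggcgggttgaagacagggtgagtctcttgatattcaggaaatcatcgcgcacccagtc
UBE2L6: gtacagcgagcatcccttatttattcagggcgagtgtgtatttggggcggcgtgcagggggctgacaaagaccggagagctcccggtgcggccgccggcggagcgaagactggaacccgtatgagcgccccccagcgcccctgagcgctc
The ISG15 promoter held 2 overlapping matches, from -113 to -104 and from -107 to -98 relative to the start. HERC5 held 3, all on the reverse strand, of which 2 overlap (-125 to -116 and -119 to -110) and the other lies at -74 to -65. Neither HERC6 nor UBE2L6, for which a second RefSeq start was also searched, held a match in the window. A match was found in 3.57% of the 35116 promoters of the table. The core of the gamma-activated site, the element of the type II interferon response, TTCNNNGAA, was in 7.66% of all promoters and in none of these 4 genes. A match is a description of the letters and says nothing of binding in these cells, nor does a missing match.

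Libraries held 5599571 to 7730228 counts (median 6413979.5), and none of the 24 library pairs within a group were identical. These libraries were primed at the poly(A) tail, so each transcript is read near its 3' end, and levels are given as counts per 1000000 (CPM) after TMM scaling. All 6 members passed the filter on low counts in every comparison, and their raw counts per library ran from 14 (UBA7) to 2940 (ISG15). Of 9 epithelial markers, 8 or 9 had counts in each group, with WT1, a marker of serous carcinoma, at 0 in UWB1.289 with DMSO, and their sum was lower with olaparib in both lines (4873 to 5156 against 3050 to 3414 CPM in OVCAR3, 8087 to 8661 against 6428 to 7850 CPM in UWB1.289). KRT18 made up much of that sum. In UWB1.289 KRT8 and KRT18 fell, MUC16 rose (0.69, edgeR's adjusted p = 0.0114) and the median log2 fold change over the 8 tested markers was -0.01, while in OVCAR3 6 of 9 fell and KRT7 rose. Of 10 leukocyte markers, CD3E, MS4A1 and NKG7 were at 0 in both UWB1.289 groups. PTPRC was the highest of the list there, at 6.13 CPM on average with DMSO and 7.87 with olaparib, against 0.23 and 0.08 in OVCAR3. The summed leukocyte list was at 1.99 to 4.03 CPM in OVCAR3, 8.43 to 12.2 in UWB1.289 with DMSO and 16.7 to 22.2 in UWB1.289 with olaparib, where CD14 (3.16 to 7.69 CPM on average) made up most of the rise. Fibroblast markers summed to 48.3 to 72.2 CPM in UWB1.289 with DMSO and to 34.9 to 51.4 with olaparib, with COL3A1, DCN and LUM at 0 in both, and in OVCAR3 to 22.4 to 30.8 CPM with DMSO and to 30.6 to 39.3 with olaparib. On average COL1A2 went from 48.4 to 23.6 CPM and THY1 from 9.255 to 14.1 CPM in UWB1.289, and COL1A1 from 24.3 to 36.05 CPM in OVCAR3. Endothelial markers stayed at or below 11.5 CPM in every library. In bulk RNA, a change in the share of cells that express a gene and a change in RNA per cell cannot be told apart.

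**Figure D1:**
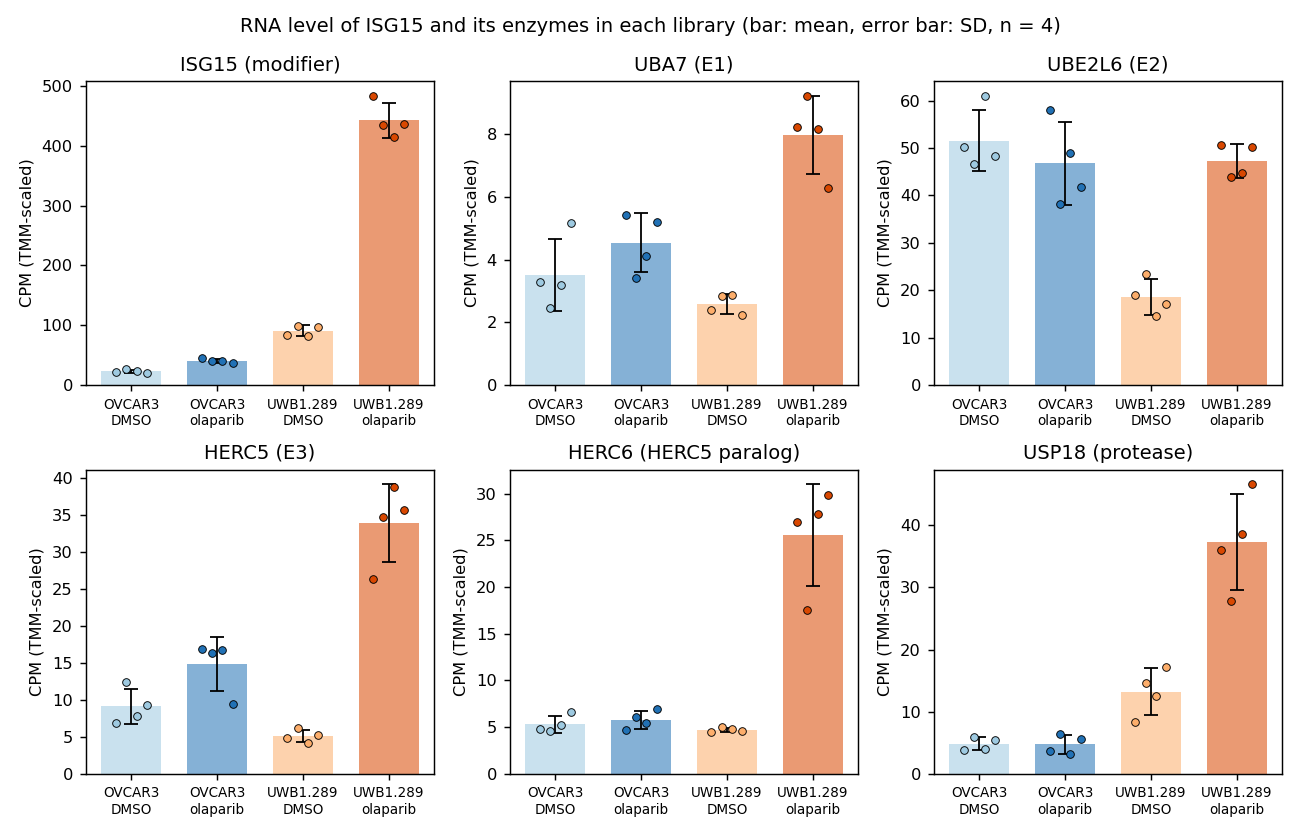
RNA level (CPM after TMM scaling, linear axis from 0) of the 6 members in the 16 libraries. Points are libraries, bars are group means and error bars are SD with n = 4. In UWB1.289 all 4 olaparib libraries lie above all 4 DMSO libraries for every member. In OVCAR3 this holds for ISG15 alone.

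In UWB1.289 olaparib raised RNA of all 6 members, from the modifier through each step of its coupling to its removal. The increases ran from 2.56-fold for UBE2L6 to 6.65-fold for HERC5. With adjusted p below 0.1, a change beyond 2-fold and an average normalized count above 10 (called in what follows), 6 of 6 members were called higher, beside 1.93% of the 12748 genes tested. For each of the 6 the olaparib and DMSO libraries did not overlap, which held in the same direction for 7.7% of all genes tested. The median log2 fold change was 1.95 over the members and -0.00 over all genes. Levels of leukocyte, epithelial and fibroblast markers moved in the same libraries, as given above, and their part in these increases was not tested.

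ISG15, the modifier, had 84.1, 99.6, 82.3 and 97.8 CPM in the 4 DMSO libraries of UWB1.289 and 484, 434, 415 and 437 CPM in the 4 olaparib libraries. The lowest olaparib library was thus far above the highest DMSO library, and the libraries of a group lay close together, with an SD of 9.87% of the mean with DMSO and 6.65% with olaparib. Its log2 fold change of 2.29 (SE 0.0870, edgeR's adjusted p = 2.14e-14) corresponds to 4.87-fold and has rank 37 from the top among the 12748 tested genes.

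Of the coupling enzymes, the E1 enzyme UBA7 had the fewest counts, with 16, 17, 18 and 17 raw counts with DMSO and 50, 52, 51 and 41 with olaparib. Its level went from 2.59 ± 0.311 to 7.97 ± 1.24 CPM (SD, n = 4), which is 1.62 in log2 units (SE 0.241, edgeR's adjusted p = 7.03e-05). UBA7 had the largest SE of the members, but the groups did not overlap. UBE2L6, the E2 enzyme, had 19.1, 23.5, 14.7 and 17.1 CPM with DMSO and 50.6, 43.8, 44.6 and 50.3 CPM with olaparib. It rose least, by 1.35 in log2 units (SE 0.130, edgeR's adjusted p = 1.17e-07).

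HERC5, the ligase, rose most, from 4.81, 6.16, 4.14 and 5.27 CPM with DMSO to 26.4, 34.8, 38.7 and 35.6 CPM with olaparib. Replicate 1 was the lowest olaparib library and still far above every DMSO library. The log2 fold change was 2.73 (SE 0.165, edgeR's adjusted p = 4.22e-11). HERC6 was even across the DMSO libraries, at 4.51, 4.99, 4.78 and 4.61 CPM, and reached 27.0, 17.6, 27.8 and 29.8 CPM with olaparib, or 2.44 in log2 units (SE 0.181, edgeR's adjusted p = 1.52e-09). Its olaparib replicate 2 was below the other olaparib libraries and above every DMSO library.

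USP18, the protease, had 8.27, 14.7, 12.6 and 17.3 CPM with DMSO and 36.1, 27.9, 38.6 and 46.6 CPM with olaparib. Both groups were more spread than those of ISG15, with SDs of 28.8% and 20.7% of the mean, but they did not overlap. The log2 fold change was 1.50 (SE 0.178, edgeR's adjusted p = 3.15e-06). USP41, a near copy of USP18 on the same chromosome, had 0 counts in all 16 libraries. How the counting treated reads that match both was not given in the sources used here. UBE2L3, the nearest relative of UBE2L6, which works with ubiquitin, was at 68.8 ± 4.75 CPM with DMSO and 71.8 ± 4.10 with olaparib, and its fold change of 0.07 (log2, SE 0.0912) did not pass the test.

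In OVCAR3 the response of the members to olaparib was narrower. Over all genes it was not, since 31.5% passed the adjusted p there and 13.9% in UWB1.289. ISG15 and HERC5 rose by less than 2-fold, and UBA7, UBE2L6, HERC6 and USP18 did not pass the test. None of the 6 members were called, beside 5.23% of the 13031 genes tested, and 2 of 6 were higher at an adjusted p below 0.1, beside 15.5% of all genes. The same 2 members had an unadjusted p below 0.05 in edgeR, and DESeq2 also called 0 of the 6. ISG15 alone had groups that did not overlap, which held in the same direction for 12.4% of all genes.

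ISG15 had 21.8, 26.2, 23.0 and 19.9 CPM in the DMSO libraries of OVCAR3 and 44.9, 39.5, 40.2 and 37.0 CPM in the olaparib libraries. The log2 fold change was 0.84 (SE 0.116, edgeR's adjusted p = 2e-05), or 1.79-fold. For HERC5 the DMSO libraries had 6.93, 12.4, 7.80 and 9.30 CPM and the olaparib libraries 16.9, 16.3, 16.8 and 9.43 CPM. Olaparib replicate 4 stood apart from the other 3 and fell within the DMSO range. The log2 fold change of HERC5 was 0.71 (SE 0.208, edgeR's adjusted p = 0.0163), and 0.88 without that library (edgeR's adjusted p = 0.000269). Over the 8 fits with 1 library left out it was lowest, 0.60, without DMSO replicate 1 (edgeR's adjusted p = 0.0626).

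The other 4 members overlapped between treatments in OVCAR3. UBA7 was at 3.30, 2.45, 3.18 and 5.15 CPM with DMSO and at 5.42, 3.43, 4.12 and 5.19 CPM with olaparib (log2 fold change 0.36, 95% interval -0.19 to 0.91, edgeR's adjusted p = 0.385). UBE2L6 was at 50.3, 46.6, 61.1 and 48.4 CPM with DMSO and at 58.1, 38.1, 49.0 and 41.8 CPM with olaparib (-0.14, -0.38 to 0.10, edgeR's adjusted p = 0.452). In neither gene did the treatments form separate groups, and the upper end of the UBE2L6 interval was far below its increase in UWB1.289. HERC6 had 4.78, 4.54, 5.20 and 6.58 CPM with DMSO and 4.65, 6.07, 5.40 and 6.97 CPM with olaparib (0.13, -0.31 to 0.57, edgeR's adjusted p = 0.729). USP18 had 3.79, 5.94, 4.04 and 5.44 CPM with DMSO and 3.72, 6.38, 3.12 and 5.605 CPM with olaparib (-0.02, -0.55 to 0.51, edgeR's adjusted p = 0.962). For HERC6 the olaparib libraries ran from within the DMSO range to just above it, and for USP18 they reached past it on both sides. For USP18 the sign of the difference turned when DMSO replicate 2 or 4 or olaparib replicate 1 or 3 was left out, to at most 0.14.

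**Figure D2:**
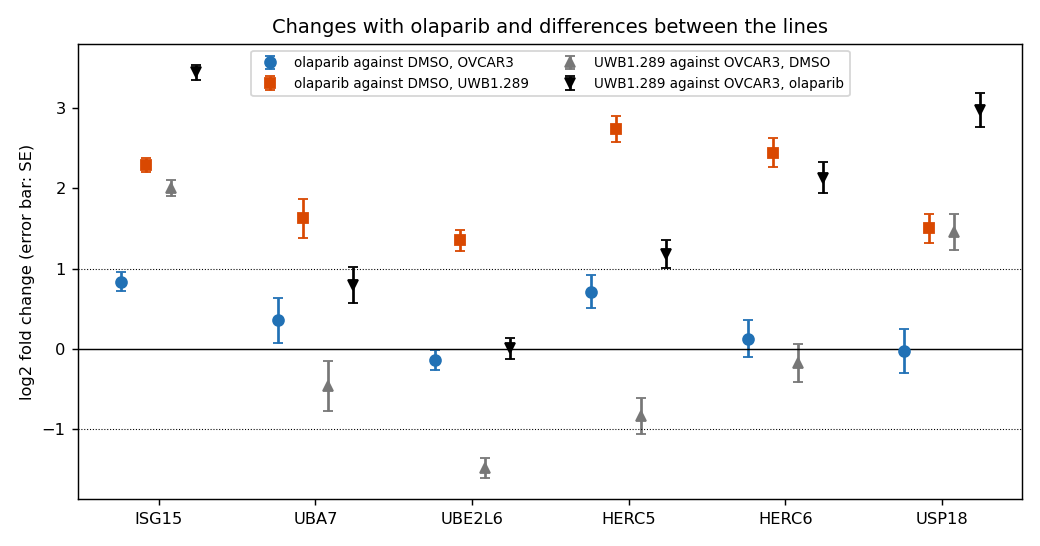
Log2 fold changes of the 6 members in 4 comparisons, with SE as error bars. Dotted lines mark the 2-fold threshold. Squares (olaparib in UWB1.289) lie above the upper dotted line for all 6 members, and circles (olaparib in OVCAR3) lie below it for all 6. Triangles show that without drug ISG15 and USP18 were higher in UWB1.289 and UBE2L6 lower.

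The difference between the lines was tested directly, as the log2 fold change in UWB1.289 minus that in OVCAR3 in 1 fit to the 16 libraries. All 6 members were called with the larger increase in UWB1.289, beside 2% of the 14243 genes tested. The difference was 2.31 for HERC6 (SE 0.284, edgeR's adjusted p = 1.75e-06), 2.02 for HERC5 (SE 0.281, edgeR's adjusted p = 1.22e-05) and 1.52 for USP18 (SE 0.331, edgeR's adjusted p = 0.00322). For UBE2L6 it was 1.50 (SE 0.189, edgeR's adjusted p = 2.68e-06) and for ISG15 1.45 (SE 0.135, edgeR's adjusted p = 9.25e-09). UBA7 had the smallest difference, 1.27 (SE 0.364, edgeR's adjusted p = 0.0290), and without OVCAR3 DMSO replicate 4, its highest DMSO library, the difference was 0.999 and not called (edgeR's adjusted p = 0.119).

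Without drug, the members did not differ between the lines in 1 direction. ISG15 was 4.01-fold higher in UWB1.289 than in OVCAR3 with DMSO (log2 difference 2.0025, SE 0.102, edgeR's adjusted p = 4.64e-17) and USP18 2.75-fold higher (1.46, SE 0.224, edgeR's adjusted p = 9.18e-07), while UBE2L6 was 2.79-fold lower (-1.48, SE 0.127, edgeR's adjusted p = 9.12e-12). HERC5 was also lower in UWB1.289, by less than 2-fold (-0.83, SE 0.224, edgeR's adjusted p = 0.00136). The modifier and its protease were thus the higher ones in UWB1.289, and the E2 and E3 enzymes the lower ones. HERC6 (-0.17, 95% interval -0.64 to 0.30, edgeR's adjusted p = 0.519) and UBA7 (-0.46, -1.07 to 0.14, edgeR's adjusted p = 0.174) did not pass the test, and UBA7 passed without OVCAR3 DMSO replicate 2 (-0.60, edgeR's adjusted p = 0.0939). Of the 13366 genes tested, 38.4% were called between the lines and 79.9% passed the adjusted p, so 3 called and 4 passing members of 6 are close to the background.

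With olaparib, 5 of 6 members were higher in UWB1.289 than in OVCAR3 at an adjusted p below 0.1, beside 38.4% of the 13398 genes tested in that direction, and 4 of them were called higher, beside 18.6% of all genes. The log2 difference was 3.44 for ISG15 (SE 0.0948, edgeR's adjusted p = 1.12e-15), or 10.9-fold, and 2.97 for USP18 (SE 0.208, edgeR's adjusted p = 3.60e-10), or 7.85-fold. It was 2.13 for HERC6, 1.18 for HERC5 and 0.79 for UBA7 (edgeR's adjusted p = 0.00426), the last below 2-fold. UBE2L6 did not differ beyond its spread (0.01, 95% interval -0.24 to 0.25, edgeR's adjusted p = 0.963). These libraries are the same as in the olaparib comparisons above, so the values are given side by side and are not separate evidence.

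Put in order over the 4 groups, the mean log2 CPM of ISG15 rose in 3 steps, from OVCAR3 with DMSO (4.52) to OVCAR3 with olaparib (5.34), UWB1.289 with DMSO (6.51) and UWB1.289 with olaparib (8.79). Neighbours did not overlap at any of these steps (two-sided exact permutation test, p = 0.0286 each, which is the lowest value possible with 4 libraries a group, and 0.0514 once adjusted for the 18 neighbouring pairs of the 6 members). Untreated UWB1.289 thus held more ISG15 RNA than treated OVCAR3. USP18 had the same order except that both OVCAR3 groups could not be separated (2.27 with olaparib and 2.33 with DMSO, exact permutation p = 0.8), below UWB1.289 with DMSO (3.71) and with olaparib (5.21). HERC5, HERC6 and UBA7 were instead lowest in untreated UWB1.289, followed by OVCAR3 with DMSO, OVCAR3 with olaparib and UWB1.289 with olaparib. Of these 9 steps, the one up to treated UWB1.289 had an adjusted p of 0.0514 for each of the 3 genes in the exact permutation test, and the first step of HERC5 had the same. The step from DMSO to olaparib in OVCAR3 had an adjusted p of 0.0935 for HERC5, and did not pass without DMSO replicate 1, 3 or 4 or olaparib replicate 1, 2 or 3 (adjusted p up to 0.187, exact permutation test). The remaining 4 steps, of HERC6 and UBA7, did not pass. UBE2L6 was lowest in untreated UWB1.289 (4.22), and the other 3 groups, between 5.54 and 5.69, did not separate from each other (exact permutation p = 0.8 and 0.314). In all, 11 of the 18 steps passed at an adjusted p below 0.1. The share over all genes was not computed for such steps, and their order was set by the same means. Many lie between the lines, where 79.9% of all genes passed edgeR's adjusted p with DMSO. Of the 11, the step of USP18 from OVCAR3 to UWB1.289 with DMSO was also lost without OVCAR3 DMSO replicate 1 or 3, and the last step of UBA7 without OVCAR3 olaparib replicate 2 or 3 (adjusted p = 0.103 each, exact permutation test). The log2 difference of these steps stayed at 1.23 or more for USP18 and at 0.66 or more for UBA7 with 1 library left out. The step of UBA7 from untreated UWB1.289 to untreated OVCAR3 and that of HERC6 passed without OVCAR3 DMSO replicate 2, and the step of UBA7 from DMSO to olaparib in OVCAR3 passed without DMSO replicate 4.

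Within a library, 6 of 10 ratios of an enzyme to ISG15 were lower with olaparib, and 4, among them both ratios of HERC5, did not pass the test. The share over all genes was not computed for such ratios. The log2 CPM of UBE2L6 minus that of ISG15 went from 1.17 ± 0.247 with DMSO to 0.19 ± 0.182 with olaparib in OVCAR3 and from -2.29 ± 0.223 to -3.22 ± 0.0804 in UWB1.289 (SD, n = 4), so relative to ISG15 it fell by 0.98 and by 0.93. For USP18 the ratio fell by 0.88 and by 0.78, with overlapping groups in UWB1.289 (exact permutation p = 0.0571). In both lines, then, the E2 enzyme and the protease were lower relative to the modifier with olaparib, as nearly all genes were. The log2 fold change was lower than that of ISG15 for 99.71% of the genes tested in UWB1.289 and for 95.61% in OVCAR3. Levels of UBE2L6 and USP18 themselves rose in UWB1.289 and did not pass the test in OVCAR3. The falls are thus not particular to these 2 enzymes. All ratios of a line share ISG15, whose own rise enters each of them, so they are not separate results. The ratio of UBA7 to ISG15 fell by 0.77 in UWB1.289, and that of HERC6 fell by 0.71 in OVCAR3, again with overlapping groups. HERC5 and HERC6 in UWB1.289 changed by 0.38 and 0.05 relative to ISG15, HERC5 in OVCAR3 by -0.14 and UBA7 in OVCAR3 by -0.46, and these 4 did not pass. The 6 others had adjusted p-values of 0.0714 or 0.0952 over the 10 tests (two-sided exact permutation test). Paired by replicate number, none of the 10 passed an exact sign-flip test (adjusted p = 0.179 for each of the 6), since 4 pairs allow no exact p below 0.125. Without OVCAR3 DMSO replicate 1, 3 or 4, 3 of the 10 passed. The ratio of USP18 in OVCAR3 still fell by 0.72 or more and that of HERC6 by 0.54 or more with any 1 library left out. UBE2L6 in both lines and UBA7 in UWB1.289 passed with any 1 library left out (exact permutation test, adjusted p at most 0.0952).

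**Figure D3:**
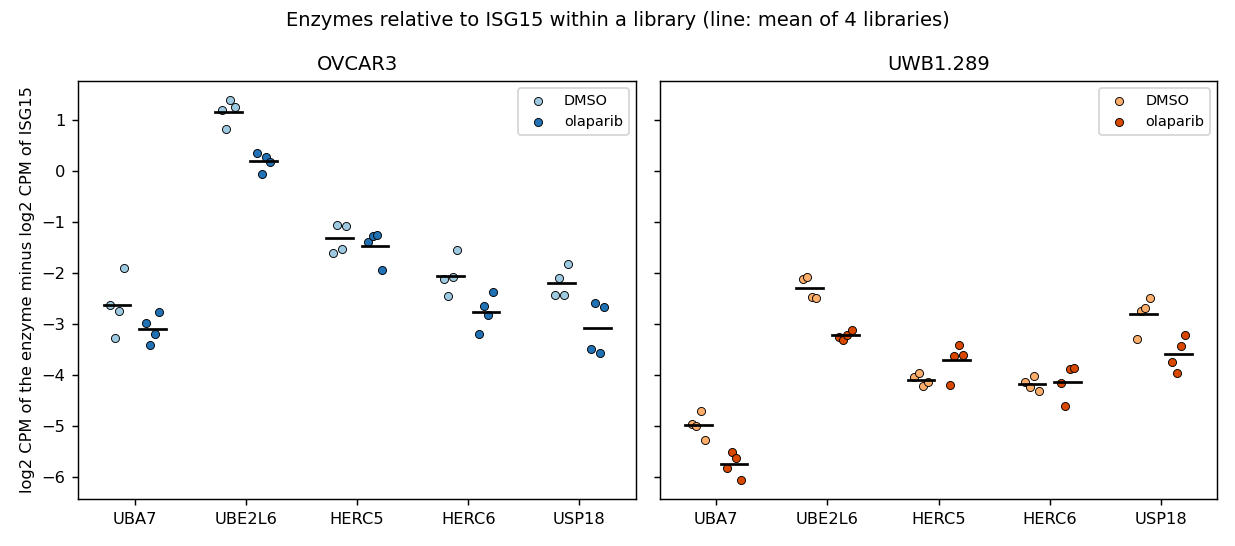
Log2 CPM of each enzyme minus log2 CPM of ISG15 in the same library, for OVCAR3 (left) and UWB1.289 (right). Points are libraries and lines are means of 4. For UBE2L6 the olaparib libraries lie below the DMSO libraries in both lines, and for HERC6 in UWB1.289 the olaparib libraries spread over both sides of the DMSO range.

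Among the counterparts of these genes in ubiquitin, NEDD8, SUMO and related systems, none passed the test upward in either line. Of 9 other E1 enzymes, 5 other E2 enzymes, 3 other HERC ligases and 11 other modifiers that were tested, 0 passed in either direction in OVCAR3 by edgeR, where 31.5% of all genes did. DESeq2 also passed 0 of the 28 there, and 3 by edgeR and 2 by DESeq2 had an unadjusted p below 0.05. In UWB1.289 1 of the 28 passed, UBA1, the main ubiquitin E1 enzyme, and it was lower (log2 fold change -0.26, SE 0.0828, edgeR's adjusted p = 0.0539), beside 13.9% of all genes. Median log2 fold changes of the 4 lists lay between -0.05 and 0.09 in OVCAR3 and between -0.09 and -0.02 in UWB1.289. For the difference between the lines 0 of the 28 passed by edgeR, beside 10.9% of all genes, and 1 by DESeq2 (NAE1, part of the NEDD8 E1 enzyme), with 4 at an unadjusted p below 0.05 by each tool. HERC3, which lies beyond HERC5 on chromosome 4, had at most 3 counts in any library and was not tested.

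**Figure D4:**
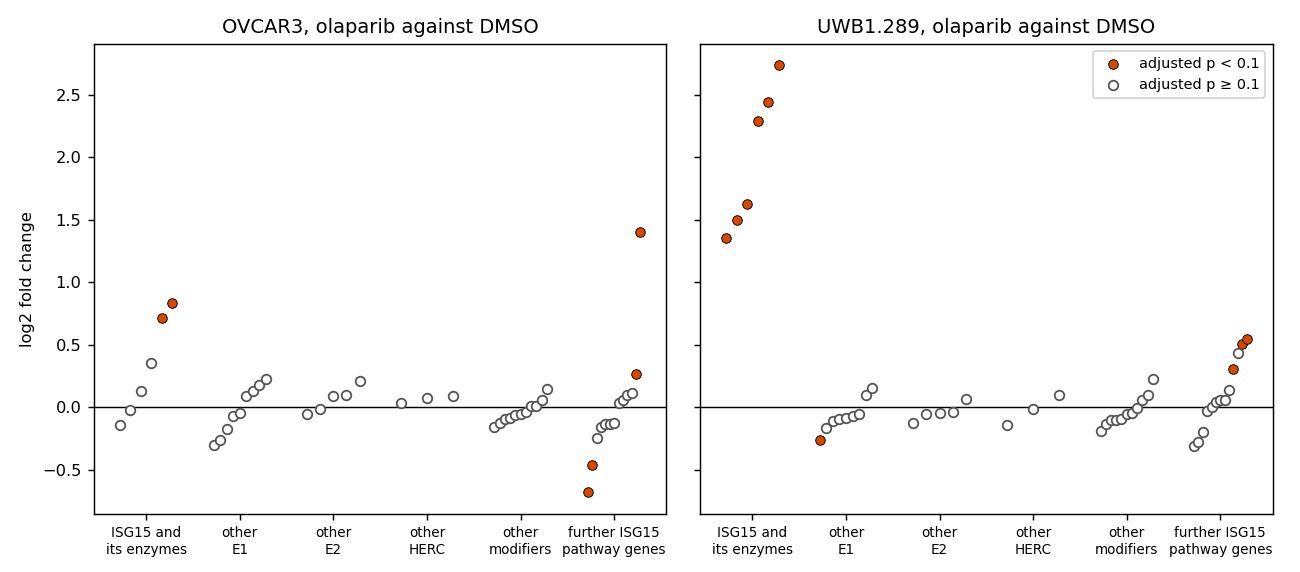
Log2 fold change with olaparib in OVCAR3 (left) and UWB1.289 (right) for the 6 members, for other E1, E2, HERC and modifier genes, and for further genes of the ISG15 pathway, each point a gene. Filled points passed an adjusted p below 0.1. In UWB1.289 the members lie between 1.35 and 2.73 and every gene of the other lists lies at or below 0.55.

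Of 13 further genes of the ISG15 pathway that were tested, 3 rose in UWB1.289, by less than any member, beside 7.77% of all genes: TRIM25, an E3 ligase also reported to act with ISG15 (log2 fold change 0.51, SE 0.0751, edgeR's adjusted p = 7.10e-05), STAT2, which also binds USP18 (0.55, SE 0.134, edgeR's adjusted p = 0.0107), and ITGB2, a chain of the integrin LFA-1 that binds ISG15 released from cells (0.31, SE 0.109, edgeR's adjusted p = 0.0799). In OVCAR3 2 rose and 2 fell, beside 15.5% and 16% of all genes, which is close to the background. ITGB2 rose by 1.40 there, more than any member, from a mean of 1.66 to 4.36 CPM (edgeR's adjusted p = 0.00193), and IFNAR2, the receptor chain that USP18 binds, by 0.26 (edgeR's adjusted p = 0.0898). UBE2E2, an E2 enzyme, fell by 0.46 (edgeR's adjusted p = 0.00266) and the protease USP21 by 0.68 (edgeR's adjusted p = 0.0263). The median over the 13 was -0.12 in OVCAR3 and 0.06 in UWB1.289. ITGAL, the other chain of LFA-1, was too low to be tested. It had 0 CPM in both OVCAR3 groups, and in UWB1.289 a mean of 0.893 CPM with DMSO and 1.375 with olaparib.

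Among 5 factors that act on interferon-stimulated genes, 4 rose in each line, but not the same 4, beside 7.77% of all genes in UWB1.289 and 15.5% in OVCAR3. IRF9, IRF1 and IRF7 rose in both, by 0.97, 1.42 and 1.65 in UWB1.289 and by 0.55, 0.72 and 0.77 in OVCAR3 on the log2 scale. STAT2 rose in UWB1.289 alone, and IRF3 in OVCAR3 alone (0.62, edgeR's adjusted p = 0.00698). The difference between the lines passed for STAT2 (0.71), IRF1 (0.70) and IRF7 (0.87), each larger in UWB1.289, and for IRF3 (-0.82), larger in OVCAR3. It did not pass for IRF9.

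Of 11 tested genes whose proteins are reported to carry ISG15, 3 rose and 1 fell in UWB1.289, beside 7.77% and 6.1% of all genes. MX1 and IFIT1, antiviral effectors that are interferon-stimulated themselves, rose by 3.71 and 3.90 on the log2 scale, ahead of every member. The RNA-dependent kinase EIF2AK2 (0.89) also rose, and the replication clamp PCNA fell by 0.37 (edgeR's adjusted p = 0.00661). In OVCAR3 4 rose, MX1 (0.80), IFIT1 (1.17), IRF3 and JAK1 (0.50), beside 15.5% of all genes, and the other 7 did not pass. The medians over the 11 genes were 0.18 in UWB1.289 and 0.11 in OVCAR3.

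The nearest protein-coding genes on either side of the members were taken among those that passed the filter on low counts over the 16 libraries. Apart from the members themselves, 1 of them passed the test in UWB1.289, beside 13.9% of all genes tested. It was HES4, a transcriptional repressor of the Hairy family that starts 966 bases from the ISG15 span on the opposite strand, which went from a mean of 17.7 to 28.8 CPM (0.71 in log2 units, SE 0.139, edgeR's adjusted p = 0.00168). OVCAR3 held HES4 at 57.8 CPM with DMSO and 58.4 with olaparib (0.02). HERC6 and HERC5, neighbours of each other, rose together in UWB1.289, while the nearest such genes outside the pair, PPM1K (0.18; 93970 bases away) and NAP1L5 (-0.53, edgeR's adjusted p = 0.374; 189750 bases away), did not pass there. SERPING1, next to UBE2L6 among these genes, was too low to be tested in UWB1.289. In OVCAR3 PPM1K, a mitochondrial phosphatase, fell by 0.93 (edgeR's adjusted p = 0.00296), and TRAIP, a ubiquitin ligase 14648 bases from UBA7, rose by 0.53 (edgeR's adjusted p = 0.0278). No other of these neighbours passed there, beside 31.5% of all genes tested. In neither line did the neighbours outside the members pass more often than all genes. The ISG15 span overlaps 2 annotated genes on the opposite strand that are not rows of the table, and how the counting used strand was not given in the sources used here.

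Likeness was measured as the root mean square difference of log2 CPM, each gene centred on its mean, over the 16 libraries and 14243 genes. The pattern most like that of ISG15 was OAS3, a synthetase that activates RNase L, at 0.188, followed at some distance by B3GNT7 (0.410), DRD2 (0.418), OAS1 (0.445) and IFI44 (0.458). OAS3 went from 14.1 to 31.3 CPM in OVCAR3 and from 53.5 to 297.9 CPM in UWB1.289. DRD2 had 0 counts in OVCAR3 with DMSO and at most 4.10 CPM on average elsewhere, so its place rests on few counts. No member was among the 5 closest to ISG15, and the nearest was USP18 (0.603, place 28). For the enzymes the closest genes were ZNFX1 (0.308) and SLPI (0.342) for UBA7, FOSL2 (0.288) and PRKAR2B (0.291) for UBE2L6, GBP1 (0.428) and TAP1 (0.454) for HERC5, SAMD9 (0.277) and DDX60L (0.296) for HERC6, and ADAM8 (0.391, place 2) for USP18. UBA7 and HERC6 were the members closest to each other (0.576), and ISG15 and UBE2L6 the farthest apart (1.79). All 16 libraries come from 2 lines, so differences between the lines enter these distances.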

How the data were processed

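Per the labels and the study's methods, the authors prepared QuantSeq 3' mRNA libraries, aligned trimmed reads to hg38 with STAR 2.7.9a and counted reads per gene with featureCounts 2.0.0 and GENCODE release 38. The deposited values are raw counts. Strand and multiple matches were not described. Of 59428 genes, 29329 had a count.

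With edgeR 4.0.16 in R 4.3.3, counts were scaled by TMM, filtered by filterByExpr and tested by quasi-likelihood, with Benjamini-Hochberg adjustment over all genes tested, separately for each comparison of 2 groups and over 16 libraries for the difference between the lines. Each SE was derived from the log2 fold change and its F statistic, and 95% intervals from the SE. CPM are TMM-scaled, and log2 CPM used a prior count of 2. Steps between groups and ratios were tested with two-sided exact permutation tests. The scripts were tested on simulated data. DESeq2 1.42.0 was an alternative.

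Members and lists were chosen with earlier results of these data known. Named are the members, list genes past an adjusted p of 0.1, near copies, nearest tested neighbours and the most similar genes (5 for ISG15, 2 for each other member). HERC3 and ITGAL, too low to be tested, are also named. Some genes of the lists are not reported here. Deviations of olaparib and DMSO libraries with the same replicate number correlated at 0.133 to 0.224 in UWB1.289 and at 0.0344 to 0.165 in OVCAR3 (9540 genes). Libraries with other numbers reached 0.157 and 0.135. In each line 3 of the 4 olaparib libraries matched their own number best. Pairing is thus a hint from the data and not from the labels. With 4 libraries a group and a median total of 6413979.5, genes of few counts, such as UBA7 with 14 to 52 per library, carry a large counting error.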

Additional observations from a re-analysis of the deposited data

Results flagged for a closer look

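HERC5 in OVCAR3 olaparib replicate 4 (9.43 CPM) lay far below the other 3 libraries of its group, which were between 16.3 and 16.9 CPM. It was 1 of 24 sets of 4 libraries checked, and chance alone gives about 1 in 20.

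The olaparib effect differed between the lines in a direct test for all 6 members, each larger in UWB1.289. The difference in log2 fold change was 1.45 for ISG15, 1.27 for UBA7, 1.50 for UBE2L6, 2.02 for HERC5, 2.31 for HERC6 and 1.52 for USP18.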

How the results depend on the processing

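Counts of members called were the same under DESeq2, the size factors of DESeq2, testing without a filter, an adjusted p below 0.05, all 16 libraries in 1 fit where this applies, and the replicate block (6 members called in UWB1.289 and for the difference of the olaparib effect, 0 in OVCAR3, 3 and 4 between the lines with DMSO and olaparib), apart from the following. Without a fold-change threshold 2 members were called in OVCAR3, 4 between the lines with DMSO and 5 with olaparib. With an average count above 50, which UBA7 does not reach, 5 were called in UWB1.289 and for the difference. Leaving out 1 library, 5 to 6 members were called for the difference between the lines, where UBA7 ran from 0.999 to 1.40. Over all genes, the number called in OVCAR3, in UWB1.289, between the lines with DMSO, between them with olaparib and for the difference was 4066, 1760, 10497, 10036 and 1521 without a fold-change threshold and 285, 141, 3245, 3078 and 297 with an average count above 50, which removes genes of low counts.

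Signs turned only for values within their error. In OVCAR3, USP18 ran from -0.20 to 0.14 with 1 library left out. With olaparib, UBE2L6 differed between the lines by -0.0032 without a filter on low counts and by -0.0836 to 0.118 with 1 library left out. Of the steps in the order of levels, 9 to 13 passed with 1 library left out. Those of ISG15 passed throughout (adjusted p at most 0.0571, exact permutation test), and with so few libraries exact p-values move in coarse steps. The step of UBE2L6 between the olaparib groups ran from -0.0587 to 0.143 and that of USP18 between the OVCAR3 groups from -0.11 to 0.21. Of the 10 ratios to ISG15, 3 to 6 passed with 1 library left out, where HERC5 in OVCAR3 ran from -0.242 to 0.0155 and HERC6 in UWB1.289 from -0.0355 to 0.213. With the replicate block 0 of the 10 ratios passed, since 4 pairs cannot reach the threshold, and the block changed no other call. The cause of these changes was not tested. Depth limits UBA7, the member with the fewest counts, most.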
